A study of Mus musculus with 6 samples.

Results

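The 9 genes described here encode receptors for extracellular nucleotides and 1 enzyme that degrades these nucleotides. They were found by symbol in a table of 18392 genes, in which each had 1 row, and 8 of the 9 reached the mean of 1 FPKM (fragments scaled by transcript length and sequencing depth) required for testing. P2rx1, the ninth, stayed below that level. RNA had been sequenced from alveolar macrophages sorted from digested lungs of C57BL/6 mice 6 weeks old. The control libraries (n = 3) came from Hdac3fl/fl mice, in which both alleles of the histone deacetylase gene Hdac3 are floxed, and the knockout libraries (n = 3) from Cd11c-CreHdac3fl/fl mice. Cd11c (Itgax) is active in alveolar macrophages and in dendritic cells, so the Cre is not limited to 1 cell type. The controls lack the Cre, and an effect of the transgene itself cannot be told apart from that of the deletion. The labels do not say whether a library holds 1 mouse or several, so the p-values speak of the spread among these libraries only.

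Cells that are damaged or activated release ATP, UTP and UDP-sugars, which act on neighbouring cells as danger signals. P2X receptors are cation channels opened by ATP, and P2Y receptors couple nucleotides to G proteins. In macrophages they control calcium entry, migration towards dying cells, phagocytosis and release of interleukin-1 beta. Entpd1 encodes CD39, which trims ATP and ADP to AMP and so ends P2 signalling and feeds the formation of adenosine.

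In knockouts Entpd1, the ATP-gated channel gene P2rx7 and the P2Y receptor genes P2ry6, P2ry12, P2ry13 and P2ry14 were lower, and the P2Y receptor gene P2ry2 was higher. P2rx4 was not called. Of the 8 tested members 6 fell and 1 rose at a limma adjusted p under 0.05. Of all 10847 tested genes 69.8% were called, 58.8% lower and 11.0% higher, so 7 calls among 8 members are read against a high background. The median log2 change was -0.84 over the 8 members and -0.31 over all tested genes. In knockouts 25.5 to 26.8% of the FPKM sum belonged to the 10 top genes, against 13.2 to 13.9% in controls, and the part of this difference in the lower values of other genes was not tested. Scaling with TMM, which trims the most extreme log ratios between libraries, moved the median of all tested genes from -0.31 to 0.04 and that of the 8 members from -0.84 to -0.47. After it 5 members were lower and 2 higher, P2rx4 was now called higher and P2ry13 was no longer called. Of all tested genes 56.4% were called after TMM, 24.8% lower and 31.7% higher. Log2 changes are of FPKM + 1, knockout minus control.

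**Figure D1:**
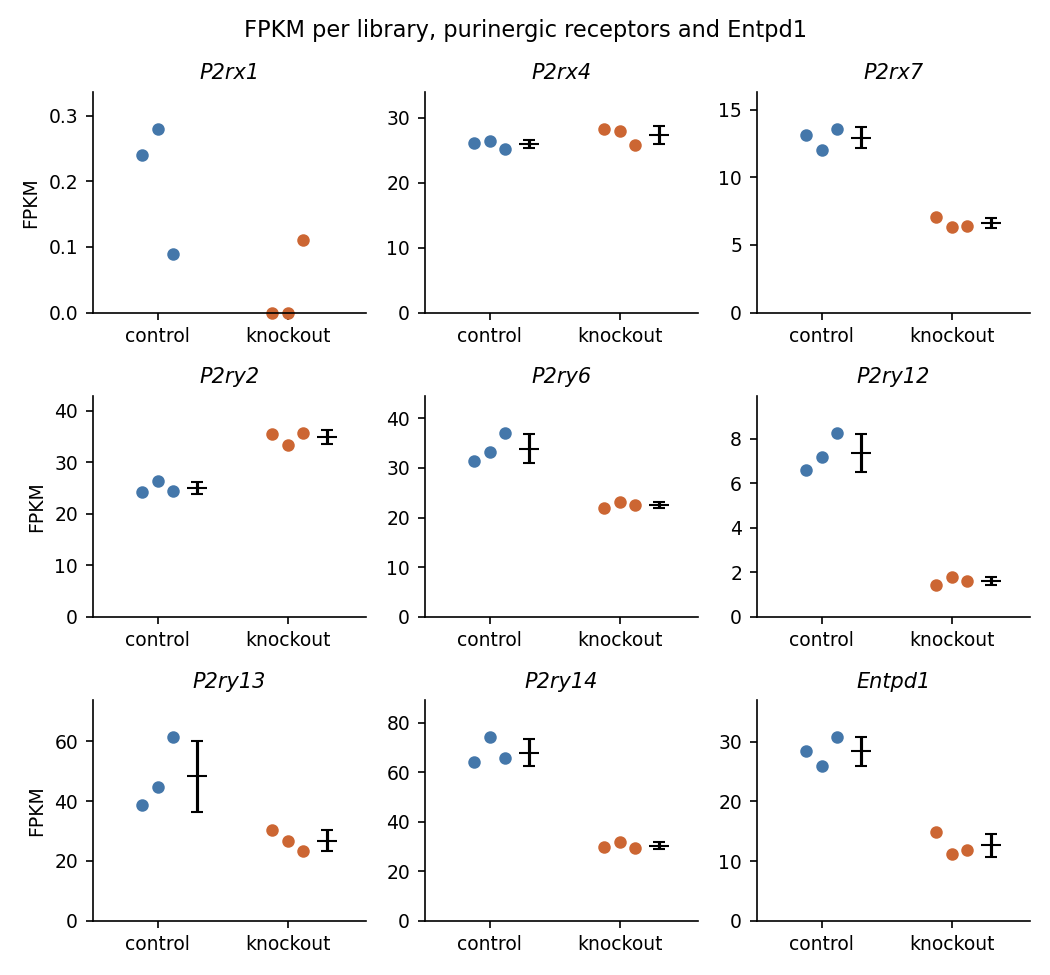
FPKM of each member in each library, with 3 control libraries in blue and 3 knockout libraries in orange, on linear axes from 0; black marks are the group mean ± SD, not drawn for P2rx1. The groups do not overlap for any member except P2rx1 and P2rx4, and P2ry2 is the one whose knockout libraries lie above the controls.

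The groups did not overlap for 7 of the 8 tested members, P2rx4 being the exception. Among all tested genes 74.5% had groups that did not overlap.

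Hdac3 itself (Entrez gene 15183, chromosome 18) read 17.7, 19.9 and 16.9 FPKM in the control libraries and 4.36, 5.05 and 3.97 FPKM in the knockout libraries. This is a log2 change of -1.81 (SE 0.09; adjusted p = 6.8e-07 in limma), or -1.46 after TMM, and a gene-level value also counts exons outside the deleted part. All 14 listed markers of alveolar macrophages reached 1 FPKM on average, of which 5 were called higher and 7 lower in knockouts as deposited. Their summed level was 18110 to 20370 FPKM in controls and 22570 to 29390 FPKM in knockouts, most of it Chil3. Without Chil3 the other 13 summed to 6041 to 6570 FPKM in controls and 4234 to 4728 FPKM in knockouts. Among those called lower, Ear2 had means of 2742 and 506.5 FPKM and Ear1 of 979.7 and 31.8 FPKM, and among those called higher Itgax had means of 435.9 and 852.3 FPKM. Single markers of other cell types reached levels above those of the members, among them Nr4a1 with up to 199 FPKM and Scgb1a1 with up to 163 FPKM in a control library. The summed markers of several such types were higher in controls. The summed level of 12 T, B and NK cell markers was 26.4 to 44.8 FPKM in controls and 9.28 to 10.1 FPKM in knockouts. For 10 platelet markers it was 8.65 to 17.0 FPKM in controls and 1.89 to 4.82 FPKM in knockouts. For 14 lung epithelial markers it was 118.3 to 322 FPKM in controls and 48.0 to 118.9 FPKM in knockouts, with overlap. Without Scgb1a1, which was not called, it was 88.7 to 159.5 and 42.85 to 62.36 FPKM. In this list 5 markers were called lower as deposited and 1 higher, Cdh1 with means of 17.26 and 20.15 FPKM. For 12 endothelial and fibroblast markers the sum was 41.4 to 74.1 and 32.7 to 39.9 FPKM. Without Cldn5 these ranges overlapped, at 36.9 to 62.4 and 31.8 to 39.0 FPKM. Vwf, the largest in this list, had means of 23.2 and 27.4 FPKM and was not called, while 4 markers were called lower and 0 higher. For 10 dendritic cell markers the sum was 11.1 to 22.0 and 5.69 to 9.27 FPKM. Without Batf3 it was 7.18 to 16.6 and 5.31 to 8.97 FPKM, with overlap. Of the dendritic cell markers 3 were called lower as deposited and 1 higher, Clec9a with means of 1.5 and 4.397 FPKM. For 10 neutrophil markers the sum was 78.0 to 95.9 and 48.1 to 69.1 FPKM. Without Csf3r, the 1 marker called, it was 45.4 to 57.3 and 44.3 to 63.5 FPKM. For 14 markers of monocytes and interstitial macrophages it was 283.6 to 356.9 and 209.6 to 218 FPKM, but without Nr4a1, which had means of 167.3 and 20.7 FPKM, 148.7 to 175.7 and 186.1 to 200.7 FPKM. In that list 2 markers were called higher as deposited, Itgam with means of 1.2 and 30.7 FPKM and C1qb with 0.483 and 1.94 FPKM, and 4 lower. The 10 markers of eosinophils, basophils and mast cells summed to at most 1.71 FPKM in any library. No listed marker was at 0 in all 6 libraries. Fewer cells of a type and less RNA per cell cannot be told apart in such bulk samples.

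The members lie on 5 chromosomes, and 7 of them are neighbours of another member. Coordinates come from RefSeq on GRCm38.p6, which is the assembly behind mm10. P2ry14 (chromosome 3, 59114623 to 59153492), P2ry13 (59207892 to 59210882) and P2ry12 (59216271 to 59262985) form a run of Gi-coupled receptor genes within the span of Med12l, which is transcribed from the other strand. P2rx7 (chromosome 5, 122643927 to 122692336) and P2rx4 (122707518 to 122729739) lie 15.2 kb apart. P2ry6 (chromosome 7, 100937630 to 100975498) and P2ry2 (100996568 to 101012053) lie 21.1 kb apart. P2rx1 is on chromosome 11 (72999056 to 73015200) and Entpd1 on chromosome 19 (40612366 to 40741602).

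The 3 receptor genes of the chromosome 3 run fell in the same direction as deposited, and P2ry2 rose, so the DNA just before their starts is shown for comparison. Each line gives the 250 bases upstream of a RefSeq start on GRCm38.p6, minus strand, 5′ to 3′, in lower case. Capitals mark matches, on either strand, to GAGGAAG (the PU.1 core of myeloid promoters), TGANTCA (AP-1), CACGTG (E-box), GGGCGG (GC box) or AGGTCA (single nuclear receptor site).
P2ry12, chr3:59262986-59263235: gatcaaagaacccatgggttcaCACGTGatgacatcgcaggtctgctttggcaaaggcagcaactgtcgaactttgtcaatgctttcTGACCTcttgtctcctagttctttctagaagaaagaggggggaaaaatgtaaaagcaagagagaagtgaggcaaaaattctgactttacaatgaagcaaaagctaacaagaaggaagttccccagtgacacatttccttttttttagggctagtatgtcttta
P2ry13, chr3:59210883-59211132: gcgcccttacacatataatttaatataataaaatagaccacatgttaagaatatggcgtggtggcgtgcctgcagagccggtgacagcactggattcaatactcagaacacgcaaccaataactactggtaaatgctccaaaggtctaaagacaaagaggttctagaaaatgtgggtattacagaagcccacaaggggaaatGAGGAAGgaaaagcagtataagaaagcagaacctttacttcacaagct
P2ry14, most upstream of 4 listed starts, chr3:59153493-59153742: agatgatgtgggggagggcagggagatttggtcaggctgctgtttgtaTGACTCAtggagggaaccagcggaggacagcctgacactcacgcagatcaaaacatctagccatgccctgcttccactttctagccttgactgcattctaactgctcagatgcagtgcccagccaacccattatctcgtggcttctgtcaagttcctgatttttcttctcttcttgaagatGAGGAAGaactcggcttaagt
P2ry2, the more upstream of 2 listed starts, chr7:101012054-101012303: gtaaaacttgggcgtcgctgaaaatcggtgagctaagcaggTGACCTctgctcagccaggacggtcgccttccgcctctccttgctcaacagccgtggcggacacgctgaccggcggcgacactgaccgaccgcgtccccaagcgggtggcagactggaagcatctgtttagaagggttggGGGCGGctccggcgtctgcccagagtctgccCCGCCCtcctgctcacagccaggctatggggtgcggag

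The PU.1 core stood 48 bases upstream of the P2ry13 start and 21 bases upstream of the most upstream P2ry14 start. It was absent from the windows of the other listed P2ry14 starts. It occurred in 13.6% of all 32851 promoter windows of 300 bases, which run from 250 bases before to 50 bases after a start. The P2ry14 window shown also held an AP-1 match 202 bases upstream (7.8% of all windows). The P2ry12 window held an E-box 228 bases upstream (7.2% of all windows) and a nuclear receptor site 163 bases upstream (16.3%). The P2ry2 window differed in composition from these 3. It was 67.3% G or C, against 42.3% in P2ry12, 42.3% in P2ry13 and 49.3% in P2ry14 and a median of 52.7% over all windows. Of the members not shown, Entpd1, called lower, had windows of 64.0% and 48.7%, and P2rx7, also called lower, of 53.3% and 51.7%. P2rx4, not called as deposited, had 60.3% and the untested P2rx1 60.7%. The P2ry2 window held a nuclear receptor site 209 bases upstream and 4 GC boxes (a motif found in 35.7% of all windows). The GC boxes upstream lay 69 and 38 bases before the start, and an E-box lay after it. No match overlapped another. The table of windows covered 8 members with 14 windows, and P2ry6 was not among them. Of these 14 windows, 4 held the PU.1 core, 3 AP-1, 3 an E-box, 4 a GC box and 5 a nuclear receptor site. The P2ry2 windows overlap each other and hold the same E-box and GC boxes, so these sites count in each of them. A match describes letters only and shows no binding.

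Among the ATP-gated channels, P2rx7 fell and P2rx4 did not. P2rx7 encodes the low-affinity channel that responds to high ATP and drives inflammasome activation and interleukin-1 beta release. It read 13.2, 12.04 and 13.6 FPKM in controls and 7.04, 6.34 and 6.42 FPKM in knockouts. Every knockout library lay below every control library. The means were 12.9 ± 0.795 and 6.6 ± 0.383 FPKM (SD, n = 3 each), a ratio of 1.96 of control over knockout. P2rx7 thus changed by -0.87 on the log2 scale (SE 0.07; adjusted p = 1.1e-05 in limma), or by -0.51 with TMM (adjusted p = 3.1e-04).

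P2rx4 encodes a channel of higher ATP affinity, held largely in lysosomes of macrophages. It read 26.1, 26.4 and 25.2 FPKM in controls and 28.3, 28.0 and 25.7 FPKM in knockouts. The knockout library with the lowest value fell within the control range. As deposited, the log2 change was 0.07 with a 95% interval of -0.06 to 0.21 (adjusted p = 0.29 in limma), and with TMM it was 0.46 (0.32 to 0.60, adjusted p = 2.3e-04). Relative to the median of all tested genes, P2rx4 stood 0.38 higher. Within a library the ratio of P2rx4 to P2rx7 does not depend on scaling, and its log2 value was 1.0 ± 0.122 in controls and 2.05 ± 0.0806 in knockouts. The 2 groups of ratios did not overlap (exact two-sided permutation p = 0.1, the smallest that 3 against 3 libraries allow).

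Camkk2, a calcium-dependent kinase gene, overlaps P2rx4 by 11360 bases in the RefSeq spans and fell from 14.6 ± 1.52 to 3.14 ± 0.396 FPKM (log2 change -1.91, or -1.57 with TMM). In GENCODE M21, on the same build, no other gene's span overlapped that of P2rx4. Strand handling of the reads is not given in the sources used here, and the part of reads from Camkk2 in the P2rx4 value was not tested.

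P2rx1, a fast-desensitising channel known from platelets and neutrophils, was below the level required for testing. It was listed at 0.24, 0.28 and 0.09 FPKM in controls and at 0, 0 and 0.11 FPKM in knockouts, so the groups overlapped. It ranked 13410 of 18392 genes by its control mean. With no filter on low values a log2 change of -0.21 was obtained (SE 0.07; adjusted p = 0.038 in limma). The summed platelet markers were 14.23, 16.98 and 8.65 FPKM in the control libraries and 1.89, 2.29 and 4.82 FPKM in the knockout libraries. The part of platelets in the P2rx1 values was not tested.

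The 2 Gq-coupled P2Y members moved apart. P2ry2, the receptor for ATP and UTP that senses nucleotides from dying cells, read 24.2, 26.4 and 24.4 FPKM in controls and 35.6, 33.3 and 35.8 FPKM in knockouts. All knockout libraries were above all controls. The means were 25.0 ± 1.23 and 34.9 ± 1.35 FPKM, a ratio of 1.40 of knockout over control. This amounts to a log2 change of 0.47 (SE 0.06; adjusted p = 1.4e-04 in limma), or 0.85 with TMM (adjusted p = 5.9e-06), and 93.7% of all tested genes had a lower log2 change.

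P2ry6, the UDP receptor linked to phagocytosis in microglia, read 31.4, 33.1 and 37.1 FPKM in controls and 22.0, 23.1 and 22.5 FPKM in knockouts. The groups did not overlap, and the means were 33.9 ± 2.92 and 22.6 ± 0.555 FPKM. P2ry6 changed by -0.56 on the log2 scale (SE 0.07; adjusted p = 1.1e-04 in limma). After TMM it was -0.18, close to the threshold with an adjusted p of 0.048 in limma. The log2 ratio of P2ry2 to P2ry6 was -0.44 ± 0.147 in controls and 0.63 ± 0.0885 in knockouts, so the more abundant of the pair was P2ry6 in each control library and P2ry2 in each knockout library (exact permutation p = 0.1, the smallest possible).

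The 3 Gi-coupled P2Y members fell as deposited, by different amounts. P2ry12 encodes the ADP receptor that guides the processes of microglia and amplifies platelet aggregation. It read 6.61, 7.17 and 8.27 FPKM in controls and 1.43, 1.78 and 1.62 FPKM in knockouts. The groups lay far apart, with means of 7.35 ± 0.845 and 1.61 ± 0.175 FPKM and a ratio of 4.57 of control over knockout. With -1.68 on the log2 scale (SE 0.10; adjusted p = 1.6e-06 in limma), or -1.38 with TMM (adjusted p = 3.8e-06), it had the largest change among the tested members. Of all tested genes 2.2% had a lower log2 change.

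Platelets are a known source of P2ry12, and platelet markers moved with it. Pf4 read 2.74, 3.53 and 2.18 FPKM in controls and 0.26, 0.53 and 1.15 FPKM in knockouts. Of the 10 platelet markers 3 reached 1 FPKM on average, and these 3 were called lower. Within the controls the library with the highest P2ry12, the third, had the lowest summed platelet markers (8.65 against 14.2 and 17.0 FPKM). The part of platelets in the P2ry12 result was not tested.

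P2ry13, a second ADP receptor, varied more between control libraries than any other tested member. It read 38.6, 44.6 and 61.5 FPKM in controls and 30.3, 26.8 and 23.3 FPKM in knockouts. The groups did not overlap, but the third control library stood apart from the other two. The coefficient of variation was 24.6% in controls and 13.1% in knockouts. The means were 48.3 ± 11.9 and 26.8 ± 3.51 FPKM. Its log2 change of -0.81 was called as deposited (SE 0.19; adjusted p = 0.0092 in limma), while with TMM -0.42 was not (95% interval -0.86 to 0.02, adjusted p = 0.094). Without the third control library it was -0.62 (adjusted p = 0.0017).

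P2ry14, the receptor for UDP-glucose and other UDP-sugars, was the most abundant member in controls. It read 64.0, 74.3 and 65.5 FPKM in controls and 29.6, 31.9 and 29.2 FPKM in knockouts. No knockout library came near the control range. The means were 67.9 ± 5.57 and 30.2 ± 1.46 FPKM, a ratio of 2.25 of control over knockout. The corresponding log2 change was -1.14 (SE 0.07; adjusted p = 2.2e-06 in limma), or -0.75 with TMM (adjusted p = 3.1e-05).

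Within the run the log2 ratio of P2ry13 to P2ry12 was 2.69 ± 0.181 in controls and 4.06 ± 0.306 in knockouts, without overlap (exact permutation p = 0.1, the smallest possible). The log2 ratio of P2ry14 to P2ry13 was 0.52 ± 0.370 and 0.18 ± 0.192, and its groups overlapped (exact permutation p = 0.3). The exons of P2ry13 and P2ry14 shared no base with Med12l and those of P2ry12 shared 9 bases of 2546. Med12l was at most 0.87 FPKM in any library. Between the 9 members no stretch of 50 bases was shared in GENCODE M21 transcripts, so reads of that length are not split among them.

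Entpd1 was the degrading enzyme among the members. It read 28.4, 25.9 and 30.8 FPKM in controls and 14.8, 11.1 and 11.9 FPKM in knockouts. All knockout libraries lay below all controls, with means of 28.4 ± 2.46 and 12.6 ± 1.94 FPKM. The ratio of control over knockout was 2.25. Entpd1 changed by -1.12 on the log2 scale (SE 0.11; adjusted p = 2.6e-05 in limma), or by -0.74 with TMM (adjusted p = 3.9e-04).

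**Figure D2:**
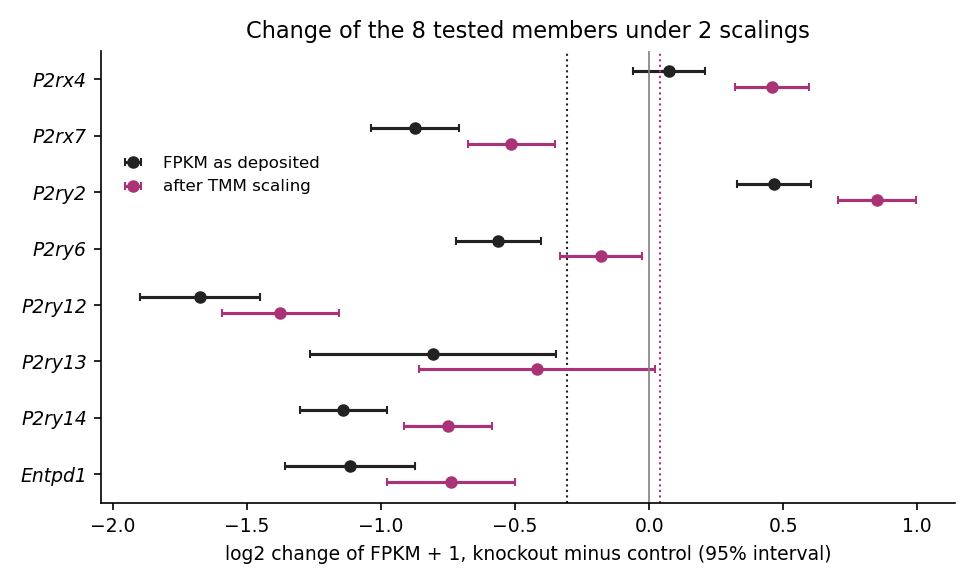
Log2 change of FPKM + 1 (knockout minus control) of the 8 tested members with 95% intervals from limma, as deposited in black and after TMM scaling in purple; dotted lines are the medians of all tested genes, -0.31 and 0.04. P2ry12 lies farthest to the left and P2ry2 farthest to the right under both scalings, and TMM moves each member to the right.

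In the plot of log2 changes, the interval of P2rx4 spans 0 as deposited and that of P2ry13 spans 0 after TMM. The other 6 intervals stay on 1 side of 0 under both scalings.

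The order of levels also differed between groups. In controls P2ry14 was followed by P2ry13, P2ry6, Entpd1, P2rx4, P2ry2, P2rx7, P2ry12 and P2rx1. Neighbours in that order had separate ranges except Entpd1 and P2rx4, and P2rx4 and P2ry2. In knockouts P2ry2 came first, followed by P2ry14, P2rx4, P2ry13, P2ry6, Entpd1, P2rx7, P2ry12 and P2rx1. There the ranges of P2rx4 and P2ry13 overlapped and those of the other neighbours did not. Ranges of genes farther apart in the order could overlap too, as for Entpd1 and P2ry2 in controls and P2ry14 and P2ry13 in knockouts. In knockout library 1 P2ry13 stood above P2ry14, at 30.33 and 29.58 FPKM.

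The 9 members summed to 232.7, 250.3 and 266.5 FPKM in the control libraries and to 169, 162 and 157 FPKM in the knockout libraries. Shares of this sum within a library are free of the scaling between libraries. P2ry2 made up 10.04 ± 0.757% of the sum in controls and 21.5 ± 1.21% in knockouts. The share of P2rx4 was 10.4 ± 0.897% and 16.8 ± 0.420% without overlap, and P2ry6 held 13.6 ± 0.345% and 13.9 ± 0.753% with overlapping groups. The share of P2ry14 went from 27.3 ± 2.56% to 18.6 ± 1.08% and that of Entpd1 from 11.4 ± 0.953% to 7.73 ± 0.963%. P2ry12 made up 2.94 ± 0.145% and 0.992 ± 0.130%, and P2rx7 5.19 ± 0.427% and 4.06 ± 0.135%. For P2ry13 the shares were 19.2 ± 3.45% and 16.4 ± 1.53%, and the groups overlapped. The 3 Gi-coupled receptors together held 49.4 ± 2.12% in controls and 36.0 ± 1.34% in knockouts, and the 2 Gq-coupled receptors 23.6 ± 0.436% and 35.4 ± 1.66%. Over the family of 13 shares and ratios, 9 reached the smallest possible exact permutation p of 0.1, or 0.144 after Benjamini-Hochberg adjustment, so none could pass 0.05.

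**Figure D3:**
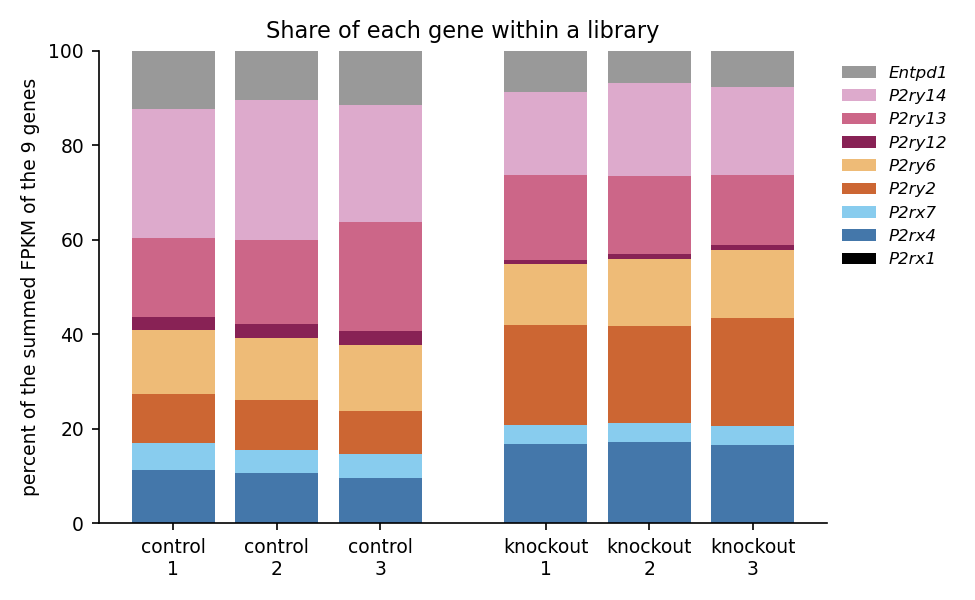
Stacked share (percent) of each of the 9 genes in their summed FPKM, 1 bar for each library, 3 control bars on the left and 3 knockout bars on the right. The P2ry2 share is 9.17 to 10.6% in control bars and 20.5 to 22.8% in knockout bars, and the P2ry14 share is smaller in each knockout bar than in any control bar.

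The rest of the pathway was read from 7 lists with 93 genes, of which 62 were tested. Of these, 16 were higher and 31 lower as deposited, with a median log2 change of -0.23, against 30 higher and 20 lower after TMM, with a median of 0.15. As deposited these are 25.8% higher and 50% lower, against 11.0% and 58.8% of all tested genes. The remaining 15 were not called as deposited.

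Both tested adenosine receptors rose, in contrast to Entpd1. Of all tested genes 11.0% were called higher as deposited and 31.7% after TMM. Adora3, a Gi-coupled receptor, read 4.50, 4.49 and 5.37 FPKM in controls and 12.5, 12.3 and 14.5 FPKM in knockouts. Its log2 change was 1.29 (1.64 after TMM, limma adjusted p = 4.3e-06 as deposited). Adora2b, a Gs-coupled receptor of low affinity, read 1.52, 1.82 and 1.73 FPKM in controls and 3.85, 3.80 and 3.99 FPKM in knockouts. Its log2 change was 0.86 (1.14 after TMM, limma adjusted p = 2.8e-05 as deposited). In both genes every knockout library exceeded every control library. Adora1 and Adora2a were at most 0.02 and 0.49 FPKM in any library.

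Of the other nucleotide hydrolases, 5 of 10 tested rose and 2 fell as deposited, against 6 rose and 1 fell after TMM. The list held Entpd4, Entpd5, Entpd6 and Entpd7, so it was not limited to enzymes that act outside the cell. As deposited 50% were higher and 20% lower, against 11.0% and 58.8% of all tested genes. After TMM 31.7% of all tested genes were higher and 24.8% lower. The median log2 change of this list was 0.35 as deposited and 0.69 after TMM. Bst1, an ectoenzyme that acts on NAD, rose from 133 ± 7.28 to 291 ± 14.6 FPKM (log2 change 1.12, or 1.52 with TMM). Enpp4 rose from 1.97 ± 0.216 to 5.30 ± 0.297 FPKM (log2 change 1.09, or 1.39 with TMM). Enpp5 rose from 0.187 ± 0.0987 to 3.65 ± 0.291 FPKM (log2 change 1.97, or 2.16 with TMM). Enpp1, which releases pyrophosphate and AMP from ATP, fell from 15.1 ± 1.16 to 6.69 ± 0.543 FPKM (log2 change -1.07, or -0.71 with TMM). Nt5e encodes CD73, which makes adenosine from the AMP that CD39 yields, and was chosen after its values were seen. It read 17.9, 17.4 and 10.7 FPKM in controls and 23.3, 26.7 and 29.5 FPKM in knockouts. The groups did not overlap (log2 change 0.78, or 1.16 with TMM, limma adjusted p = 0.016 as deposited).

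In adenosine uptake and metabolism, 3 of 7 tested genes rose and 2 fell as deposited, and 5 rose and 2 fell after TMM. As deposited 42.9% were higher and 28.6% lower, against 11.0% and 58.8% of all tested genes, which after TMM were 31.7% higher and 24.8% lower. The equilibrative nucleoside transporter Slc29a1 rose from 139.9 ± 5.32 to 228 ± 9.29 FPKM (log2 change 0.70, or 1.09 with TMM). The lysosomal nucleoside transporter Slc29a3 fell from 8.90 ± 0.731 to 4.41 ± 0.414 FPKM (log2 change -0.87, or -0.53 with TMM). The cytosolic nucleotidase Nt5c2 fell from 23.4 ± 1.95 to 14.9 ± 1.1 FPKM (log2 change -0.62, or -0.25 with TMM). The median log2 change of this list was 0.21 as deposited and 0.55 after TMM.

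Among genes of ATP and UDP-sugar release, 2 of 10 tested rose and 5 fell as deposited, against 5 rose and 3 fell after TMM. As deposited 20% were higher and 50% lower, against 11.0% and 58.8% of all tested genes, which after TMM were 31.7% higher and 24.8% lower. The ATP-releasing pannexin channel Panx1 fell from 7.52 ± 0.459 to 4.59 ± 0.416 FPKM (log2 change -0.61, or -0.27 with TMM). Of the volume-regulated anion channel subunits, Lrrc8a fell from 5.73 ± 0.0950 to 3.68 ± 0.131 FPKM (log2 change -0.52, or -0.20 with TMM). Lrrc8b rose from 8.53 ± 0.411 to 14.8 ± 1.03 FPKM (log2 change 0.73, or 1.09 with TMM). Slco2a1, a prostaglandin transporter that also forms an anion channel, fell from 2.22 ± 1.09 to 0.483 ± 0.142 FPKM (log2 change -1.07, or -0.88 with TMM). In the control libraries it read 3.48, 1.61 and 1.58 FPKM. The summed endothelial and fibroblast markers there were 74.1, 56.5 and 41.4 FPKM, in the same order, and their part in the Slco2a1 result was not tested. The median log2 change of this list was -0.21 as deposited and 0.13 after TMM, so its sign turned.

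Of 26 tested G proteins and effectors, 4 rose and 16 fell as deposited, against 12 rose and 8 fell after TMM, with a median log2 change of -0.26 as deposited and 0.10 after TMM, so that its sign turned. The 61.5% called lower as deposited compare with 58.8% of all tested genes. After TMM 31.7% of all tested genes were higher and 24.8% lower. The beta-arrestin Arrb1 rose from 4.44 ± 0.426 to 14.1 ± 1.53 FPKM (log2 change 1.47, or 1.81 with TMM). Pik3r6, a regulatory subunit of the phosphoinositide 3-kinase that Gi-coupled receptors activate, fell from 43.8 ± 3.18 to 19.1 ± 0.440 FPKM (log2 change -1.15, or -0.77 with TMM). Gng2, a G protein gamma subunit, fell from 9.33 ± 2.02 to 4.05 ± 0.367 FPKM (log2 change -1.02, or -0.68 with TMM). Camkk2, described beside P2rx4, also belongs to this list.

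Of the 6 other P2 receptor genes, P2rx5 alone reached the tested level and fell from 10.5 ± 0.439 to 4.12 ± 0.437 FPKM (log2 change -1.17, or -0.83 with TMM). P2ry1, an ADP receptor chosen after its values were seen, was below the tested level at 0.07, 0.07 and 0.10 FPKM in controls and 0.49, 0.54 and 0.41 FPKM in knockouts. P2rx2, P2rx3, P2rx6 and P2ry4 stayed at or below 0.15 FPKM in every library. Of 6 tested receptors related to the P2Y family, 5 fell under both scalings, although Lpar6 was at the threshold after TMM. Of all tested genes 58.8% were called lower as deposited and 24.8% after TMM. The lysophosphatidylserine receptor genes Gpr34 and P2ry10 fell from 3.94 ± 2.17 to 0.283 ± 0.114 FPKM and from 3.53 ± 1.48 to 0.367 ± 0.106 FPKM (log2 changes -1.86 and -1.68, or -1.66 and -1.48 with TMM). Gpr171, 12.8 kb from P2ry14 on chromosome 3, fell from 8.23 ± 2.38 to 2.62 ± 0.503 FPKM (log2 change -1.32, or -1.0 with TMM). The leukotriene receptor Cysltr1 fell from 1.85 ± 0.115 to 0.727 ± 0.180 FPKM (log2 change -0.73, or -0.52 with TMM). P2ry10 is known from lymphocytes, and the lymphocyte markers given above moved with it and with Gpr171. In the control libraries P2ry10 read 5.20, 3.01 and 2.38 FPKM, Gpr171 10.4, 8.54 and 5.71 FPKM and the summed T, B and NK cell markers 44.8, 35.6 and 26.4 FPKM, in the same order. Their part in the results for P2ry10 and Gpr171 was not tested.

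**Figure D4:**
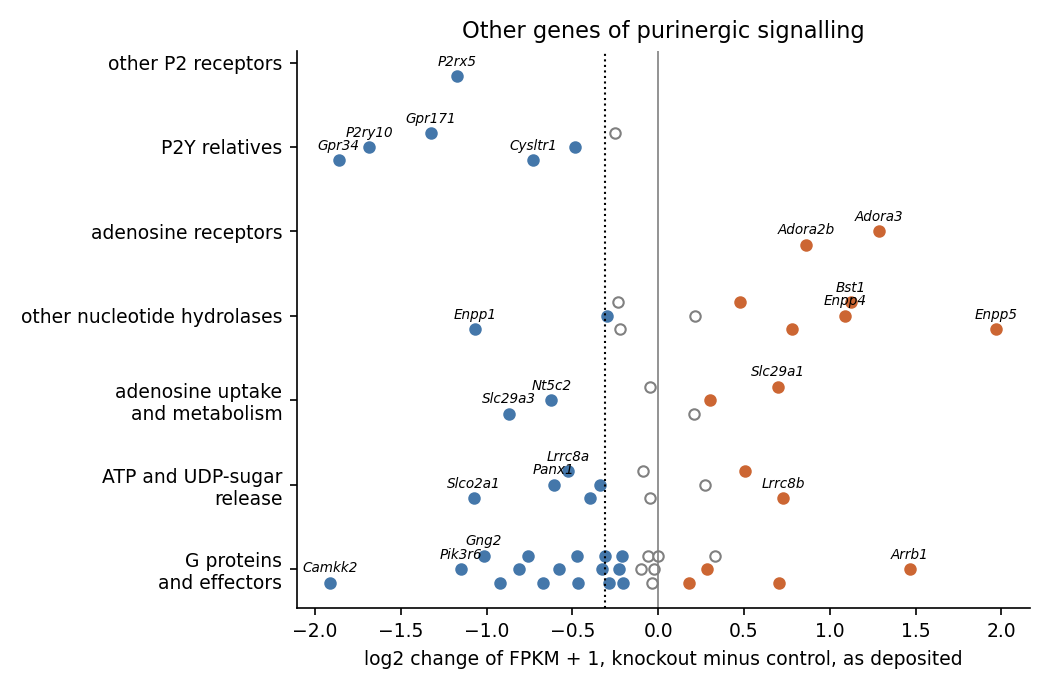
Log2 change of FPKM + 1 (knockout minus control, as deposited) of the tested genes in the 7 pathway lists, 1 gene not shown, 1 row for each list with points offset vertically for legibility. Orange points were called higher, blue points lower and open points not called at a limma adjusted p under 0.05, and the dotted line is the median of all tested genes, -0.31; both adenosine receptors lie to the right of 0.

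The plot of pathway genes shows the adenosine receptors and most called hydrolases to the right of 0, and the P2Y relatives and most called effectors to the left.

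Of 14 tested genes within 100 kb of a member that are not members themselves, 0 were called higher and 10 lower by limma as deposited, with a median log2 change of -0.59, against 3 higher and 8 lower after TMM, with a median of -0.29. The 71.4% called lower as deposited compare with 58.8% of all tested genes, which after TMM were 31.7% higher and 24.8% lower. At an unadjusted limma p under 0.05, 1 was higher as deposited. Beside Entpd1, Aldh18a1 fell from 15.2 ± 0.799 to 6.70 ± 0.280 FPKM (log2 change -1.07, or -0.71 with TMM) and Tctn3, 42 bases away, from 9.40 ± 0.800 to 4.57 ± 0.407 FPKM (log2 change -0.90, or -0.56 with TMM). Beside P2rx1, the calcium pump gene Atp2a3 fell from 5.76 ± 1.75 to 1.83 ± 0.309 FPKM (log2 change -1.23, or -0.93 with TMM). In the control libraries it read 7.47, 5.83 and 3.97 FPKM. The summed T, B and NK cell markers there were 44.8, 35.6 and 26.4 FPKM, in the same order, and their part in the Atp2a3 result was not tested. Near P2ry6, Relt and Fam168a had log2 changes of 0.05 and -0.10 as deposited and were not called. After TMM these were 0.43 and 0.28, and both were called higher (limma adjusted p = 0.00073 and 0.012).

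The genes whose profile lay nearest to that of a member over the 6 libraries were sought for the 3 members with the largest log2 changes. The measure was the Euclidean distance of log2(FPKM + 1) centred on its mean, which mostly reflects the difference between the 2 groups. Nearest to P2ry12 were Clec4b1, Dgkg and Ube2e3, at distances of 0.168, 0.194 and 0.197. Nearest to P2ry14 were Pomgnt2, Camk1 and Ptges, at distances of 0.0772, 0.123 and 0.145. Nearest to Entpd1 were Tgm1, Plxnc1 and Zfp961, at distances of 0.097, 0.172 and 0.177. The added 1 FPKM shrinks changes of low genes, so a near profile need not mean a like ratio of FPKM. Pomgnt2 had means of 1.86 and 0.307 FPKM in controls and knockouts, and Ptges of 2.73 and 0.763 FPKM. P2ry14 had means of 67.9 and 30.2 FPKM, and Camk1 of 131.1 and 56.0 FPKM. Dgkg, with means of 4.50 and 0.637 FPKM, and Tgm1, with 4.07 and 1.28 FPKM, were also low.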

How the data were processed

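The authors deposited gene-level FPKM with 2 decimals, 1 column for each of 6 libraries, per the file headers. Trizol extraction and a standard BGI library preparation are named in the labels' protocols. Bowtie2 and RSEM, without versions, and the build mm10 stand in the submitters' processing notes. Strand handling is not given in the sources used here. FPKM keep no absolute depth, so no counting intervals are given. The depth relative to the first control library, from the steps of low values in genes with 1 listed transcript, was 96.4% to 104.8%.

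The test was limma 3.58.1 (R 4.3.3; trended, robust empirical Bayes, two-sided) on log2(FPKM + 1), knockout minus control. It took in the 10847 genes whose mean reached 1 FPKM, with Benjamini-Hochberg adjustment over all of them and calls at an adjusted p under 0.05. Log2 changes understate those of low genes. TMM (trimmed mean of M values) factors came from the published trimming (30% of log ratios, 5% of levels) without precision weights, which need counts. The limma step was tested on simulated data. Gene IDs matched RefSeq on GRCm38.p6 for 18342 genes, and 24 symbols turned into dates were restored. The members and all lists were chosen with earlier results of these data known. Besides the members and Hdac3, genes were named by rule: up to 4 called genes of a list with the largest change, tested neighbours within 100 kb, and the 3 nearest profiles; 1 gene selected by it is counted in its list but not reported by itself here. Same-numbered libraries were not paired: the correlations of their deviations from group means were -0.105, -0.0556 and -0.0861.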

Additional observations from a re-analysis of the deposited data

How the results depend on the processing

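Member calls of 1 higher and 6 lower were obtained with a pseudocount of 0.1 and without any 1 library. Without a filter on low values P2rx1 was also called lower. TMM scaling gave 2 members higher and 5 lower, 3427 of all tested genes higher and 2678 lower (1194 and 6376 as deposited), and 30 pathway genes higher and 20 lower. TMM raised P2rx4 to 0.46 and left P2ry13 at -0.42, not called. With the replicate number as a block, although the libraries share only a number, P2ry13 was not called (-0.81, limma adjusted p = 0.058), no other member changed its call, and 1180 genes were higher and 6193 lower. Leaving out each library in turn gave 1027 to 1165 genes higher and 5780 to 6080 lower, 15 to 18 pathway genes higher and 29 to 31 lower. Among members it gave log2 changes of -0.95 to -0.62 for P2ry13 and -1.74 to -1.60 for P2ry12. No log2 change of a tested member changed sign in any of these fits.

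Shares computed over the members without P2ry14 differed between groups, knockout minus control, by -2.15 percentage points for P2rx7, 12.6 for P2ry2, -1.57 for P2ry6, -2.82 for P2ry12, -6.09 for P2ry13 and -6.14 for Entpd1. With P2ry14 they differed by -1.13, 11.4, 0.332, -1.94, -2.73 and -3.65, so P2ry6 changed sign. P2rx4 differed by 6.31 without P2ry14 and 6.39 with it. P2ry14 held 27.3% of the sum in controls and 18.6% in knockouts. Leaving out 1 library gave share differences of P2ry13 between -4.02 and -0.773, the latter without the third control library. Since only relative depth is known, precision at low FPKM, as for P2rx1, cannot be stated.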
